A study of Homo sapiens with 24 samples.

Results

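The genes described here are 10 genes of the retinoic acid pathway, namely the retinaldehyde dehydrogenases ALDH1A1, ALDH1A2 and ALDH1A3, the retinoic acid hydroxylases CYP26A1 and CYP26B1, the binding proteins CRABP2 and FABP5, and the receptors RARA, RARB and RARG. They were chosen by name, as the Ensembl identifiers that map to these symbols, and all 10 were found among the 60675 identifiers of the count table, of which 37659 had a count. The counts come from MIA PaCa-2, a cell line from a human pancreatic ductal adenocarcinoma, in 2 derivatives. The C/EBPδ-inducible cells were 3 pooled clones with a lentiviral pCW57 Tet-On construct with the CEBPD cDNA, plus mVenus, and CTRL cells carry the construct without the cDNA, plus mCherry. Both lines were sampled after 0, 8, 24 and 48 h of doxycycline at 2 µg/mL, with 3 replicate wells in each of 8 groups. The labels list doxycycline at 0 h as well, but those cells were described as untreated in the study and are treated as such. Between the lines at 0 h, effects of CEBPD expressed without doxycycline and differences between clones, transductions or fluorophores cannot be told apart. The same holds for any part of a 0 h difference that stays at later times.

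Retinoic acid is made from vitamin A in successive oxidations. Alcohol dehydrogenases and short-chain dehydrogenases convert retinol to retinaldehyde, and the ALDH1A enzymes oxidise retinaldehyde irreversibly to retinoic acid. CRABP2 and FABP5 carry the acid through the cell, retinoic acid receptors bound to a retinoid X receptor read it at target genes, and CYP26 enzymes hydroxylate it for disposal. ALDH1A1 and ALDH1A3 also account for much of the aldehyde dehydrogenase activity that is used to sort stem-like cells from carcinomas, the pancreatic ones included. C/EBPδ is a basic leucine zipper transcription factor of the C/EBP family.

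Libraries held 12731237 to 22598595 counts, with a median of 18959363.5. Values are given below as CPM, each count scaled to a common library size (per 1000000 counts) after TMM normalisation. CEBPD itself stood at 18.9 to 23.3 CPM in C/EBPδ-inducible cells at 0 h, above the 3.72 to 4.201 CPM of CTRL cells, and at 266, 237 and 236 CPM after 8 h. Its level after 24 h, 301 to 320 CPM, was 14.2-fold that at 0 h (log2 fold change 3.83 ± 0.05 SE, edgeR adjusted p = 5.84e-24). Counts do not separate the construct from the endogenous gene. The study attributes the raised CEBPD level of untreated inducible cells to probable leakiness of the Tet-On construct. VIM, KRT8, KRT18 and SOX9 were detected in every library, the epithelial markers EPCAM and CDH1 were low in both lines, at no more than 2.29 and 6.07 CPM, and the leukocyte gene PTPRC was at or near 0. The epithelial keratin KRT8 differed between the lines, with 1003 to 1598 CPM in CTRL cells and 34.4 to 76.0 CPM in C/EBPδ-inducible cells, and COL1A2 did so too, with 448 to 684 and 134 to 251 CPM. The part of these line differences in the results below was not tested.

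The sequences in front of the genes are shown because the construct expresses a DNA-binding factor and because some of these genes carry retinoic acid response elements. RefSeq (GRCh38.p14) lists 16 start windows for 9 of the 10 genes, each from 250 bases before to 50 bases after a start. A C/EBP motif spelled TTNNGNAA, on either strand, was present in 7 of the 16 windows, against 36.8% of 35116 promoters. A response element spelled as a direct repeat of AGNTCA spaced by 5 bases was present in 1 window, of CYP26A1, against 0.0797% of all promoters. The repeat spaced by 2 bases was present in none, against 0.0541%. A variant spelled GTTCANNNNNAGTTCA was added after the sequences were seen and overlaps with that spelling. It was present in a window of CYP26A1 and a window of RARB, against 0.0342% of all promoters. The repeat of RARB begins with GGTTCA, which a spelling with A in front does not match, so the search for AGNTCA missed it. A match is a description of letters and not evidence of binding. The 250 bases before the start are printed for the 3 genes with the clearest counts, ALDH1A1 (chr9:72953054-72953303, minus strand), ALDH1A3 (chr15:100879581-100879830, plus strand) and CYP26B1 (chr2:72147863-72148112, minus strand), and for the windows of CYP26A1 (chr10:93073643-93073892, plus strand) and RARB (chr3:25428013-25428262, plus strand) with a repeat. Capitals mark the motifs.
ALDH1A1: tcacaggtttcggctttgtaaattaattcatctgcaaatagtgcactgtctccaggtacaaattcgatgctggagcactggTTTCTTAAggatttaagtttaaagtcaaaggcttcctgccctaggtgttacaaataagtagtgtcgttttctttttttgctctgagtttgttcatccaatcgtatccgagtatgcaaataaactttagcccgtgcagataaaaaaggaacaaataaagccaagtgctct
ALDH1A3: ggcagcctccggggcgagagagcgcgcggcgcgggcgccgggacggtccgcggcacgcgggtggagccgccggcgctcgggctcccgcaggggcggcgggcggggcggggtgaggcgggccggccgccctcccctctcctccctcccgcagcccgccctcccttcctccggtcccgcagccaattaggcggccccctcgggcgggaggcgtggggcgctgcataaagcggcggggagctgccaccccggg
CYP26B1: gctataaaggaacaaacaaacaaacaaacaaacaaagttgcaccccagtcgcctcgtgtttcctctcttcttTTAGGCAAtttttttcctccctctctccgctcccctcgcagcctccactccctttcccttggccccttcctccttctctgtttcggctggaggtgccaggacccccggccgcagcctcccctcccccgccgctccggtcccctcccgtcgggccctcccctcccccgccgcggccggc
CYP26A1: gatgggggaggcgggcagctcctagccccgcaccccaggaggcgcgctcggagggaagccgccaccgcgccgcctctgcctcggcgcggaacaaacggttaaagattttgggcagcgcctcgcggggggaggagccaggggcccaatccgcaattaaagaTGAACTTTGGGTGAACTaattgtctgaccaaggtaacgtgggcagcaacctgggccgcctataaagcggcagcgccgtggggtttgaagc
RARB: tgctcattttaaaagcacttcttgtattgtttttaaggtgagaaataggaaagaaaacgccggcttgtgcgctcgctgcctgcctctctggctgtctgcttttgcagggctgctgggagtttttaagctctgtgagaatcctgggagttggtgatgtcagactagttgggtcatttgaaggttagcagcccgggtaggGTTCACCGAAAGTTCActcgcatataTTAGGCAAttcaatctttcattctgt
The stretches of ALDH1A1 and CYP26B1 each hold 1 C/EBP match, which begins at -169 and -178 from the start, and that of ALDH1A3 holds none of the motifs. In CYP26A1 the repeat begins at -90, and in RARB the variant begins at -52 with a C/EBP match at -26.

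ALDH1A1 was the main retinaldehyde dehydrogenase of CTRL cells and was nearly absent from C/EBPδ-inducible cells at every time, before doxycycline included. The gene spans 72900671 to 73080442 of chromosome 9 on the minus strand in GENCODE 44, and the start printed above lies inside that span. In CTRL cells it was measured at 1860, 1878 and 1802 CPM at 0 h, at 1488, 1516 and 1602 CPM at 8 h, at 1800, 1803 and 1765 CPM at 24 h, and at 1912, 2098 and 2056 CPM at 48 h. In C/EBPδ-inducible cells the corresponding values were 2.72, 2.41 and 6.003 CPM at 0 h, 2.46, 4.18 and 5.60 CPM at 8 h, 1.60, 6.90 and 11.8 CPM at 24 h, and 1.36, 1.495 and 0.872 CPM at 48 h. No library of one line came near the other, since CTRL libraries held 25128 to 39103 counts and C/EBPδ-inducible libraries 15 to 265. The level was lower in C/EBPδ-inducible cells by 512-fold at 0 h (log2 fold change -9.00 ± 0.10 SE, edgeR adjusted p = 3.24e-22) and by 382-fold at 8 h (-8.58 ± 0.20 SE, adjusted p = 3.65e-11). It was lower by 257-fold at 24 h (-8.01 ± 0.16 SE, edgeR adjusted p = 1.09e-23) and by 1605-fold at 48 h (-10.65 ± 0.09 SE, adjusted p = 1.79e-17). The value at 24 h became -8.68 without replicate 3 of C/EBPδ-inducible cells. The replicates were wells seeded side by side, so these p-values measure at most the spread between wells. The SEs between the lines were small beside the spread of the few reads in C/EBPδ-inducible cells. At 24 h those wells gave an SE of 0.16 against CTRL cells but of 0.38 against their own 0 h wells. For a single gene with 3 against 3 libraries, the smallest two-sided p of an exact permutation test is 0.1.

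The little ALDH1A1 that was left in C/EBPδ-inducible cells varied between wells. At 24 h the wells held 32, 145 and 265 counts, a wider range than at the other times. The 48 h wells, with 24, 34 and 15 counts, were the lowest group and did not overlap with the 0 h wells, which held 51, 53 and 107. Between 0 and 48 h the level fell by 1.55 ± 0.29 SE on the log2 scale (edgeR adjusted p = 8.31e-05), and this change differed from that of CTRL cells by -1.67 ± 0.30 SE (adjusted p = 0.00114). With all 24 libraries in 1 model the adjusted p of these values became 0.026 and 0.0637. The change at 24 h, 0.92 ± 0.38 SE, did not pass the threshold (edgeR adjusted p = 0.0849), but did so without replicate 1 of that group (1.37, adjusted p = 0.000287), and was 0.24 without replicate 3 (adjusted p = 0.741). Of 13 alternatives 11 gave the same call for it, and a change of processing also called it. Other genes that are near-absent from this line had the same order of wells at 24 h. Of the genes with at least 400 counts in every CTRL library and under 2% of the CTRL level in C/EBPδ-inducible cells, chosen after their values were seen, ANK3, MAP2, MMP1, HOXB8 and HOXB9 were, like ALDH1A1, highest in replicate 3 and lowest in replicate 1 at 24 h. As a percentage of the mean CTRL level, ALDH1A1 was at 0.0887, 0.383 and 0.657% in those wells and ANK3 at 0.0826, 0.342 and 0.837%. From 0 to 48 h these genes did not all move alike. ALDH1A1 went from 0.151, 0.134 and 0.334% to 0.0754, 0.0831 and 0.0485%. MMP1 fell too, from 0.412, 0.481 and 0.632% to 0.2435, 0.248 and 0.215%. HOXB8 also fell, from 1.76, 1.87 and 2.005% to 1.31, 1.08 and 1.5%. HOXB9 rose from 0.783, 1.10 and 0.825% to 1.39, 1.47 and 1.62%, and the ranges of ANK3 and MAP2 at the 2 times overlapped. The part of the shared order at 24 h in the ALDH1A1 values was not tested.

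ALDH1A3 was the abundant retinaldehyde dehydrogenase of C/EBPδ-inducible cells and was moderately higher there than in CTRL cells. The gene spans 100877714 to 100916626 of chromosome 15 on the plus strand. The wells of CTRL cells held 182, 190 and 190 CPM at 0 h, 190, 188 and 209 CPM at 8 h, 175, 176 and 173 CPM at 24 h, and 138, 154 and 165 CPM at 48 h. Those of C/EBPδ-inducible cells held 254, 245 and 257 CPM at 0 h, 270, 269 and 277 CPM at 8 h, 212, 220 and 213 CPM at 24 h, and 217, 211 and 215 CPM at 48 h. Every C/EBPδ-inducible library was above every CTRL library, by 1.34-fold at 0 h, 1.40-fold at 8 h, 1.24-fold at 24 h and 1.40-fold at 48 h. At 24 h the log2 fold change was 0.31 ± 0.03 SE (edgeR adjusted p = 1.67e-08). ALDH1A3 declined in both lines. Between 0 and 48 h it fell by 0.25 ± 0.03 SE on the log2 scale in C/EBPδ-inducible cells (edgeR adjusted p = 3.1e-07) and by 0.30 ± 0.06 SE in CTRL cells (adjusted p = 0.00126), and the difference between these changes was 0.04 ± 0.07 SE (adjusted p = 0.803). In C/EBPδ-inducible cells it had first risen by 0.12 ± 0.03 SE at 8 h (edgeR adjusted p = 0.0036), a call that was lost without replicate 1 of 0 h, replicate 2 of 0 h or replicate 3 of 8 h (adjusted p = 0.0124, 0.0299 and 0.0167). Exons of ALDH1A3 overlap an unnamed gene on the same strand and ALDH1A3-AS1 on the other. The strand setting of the counting is not given in the sources used here, so reads of such partners cannot be told apart.

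ALDH1A2 was expressed at a very low level, and its reads came almost entirely from C/EBPδ-inducible cells. These wells held 15, 19 and 10 counts at 0 h, 18, 22 and 8 at 8 h, 9, 22 and 25 at 24 h, and 21, 32 and 20 at 48 h, against 0 to 5 counts in each CTRL well. The summed counts correspond to ratios of 5.76 at 0 h (95% counting interval 2.58 to 15.2), 10.2 at 8 h, 7.75 at 24 h and 14.2 at 48 h (5.83 to 45.1), in intervals that cover counting error only. The edgeR adjusted p was 0.000217 at 0 h, 0.000178 at 8 h and 0.000201 at 48 h, and the gene was under the low-count filter at 24 h. The ratio at 48 h rests on replicate 2, the only CTRL well there with reads (5 counts). ALDH1A2 passed the filter through the line in which it was higher. Its exons overlap ALDH1A2-AS1 and AQP9 on the other strand.

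Per kilobase of exon, the ALDH1A transcripts of the lines therefore had opposite compositions. RPKM here is the CPM divided by the exon length of the gene in kilobases, which allows genes to be compared. Summed over the 3 enzymes it ranged from 559.5 to 768 RPKM in CTRL libraries and from 40.3 to 54.0 RPKM in C/EBPδ-inducible libraries. ALDH1A1 made up 93.5 to 96.3% of this sum in CTRL cells and 0.752 to 9.41% in C/EBPδ-inducible cells, whereas ALDH1A3 made up 3.70 to 6.49% and 90.3 to 98.9%. The ALDH1A3 level of C/EBPδ-inducible cells, 39.6 to 52.0 RPKM, stayed far below the 524 to 739 RPKM of ALDH1A1 in CTRL cells. Bulk counts do not separate fewer positive cells from less RNA per cell.

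**Figure D1:**
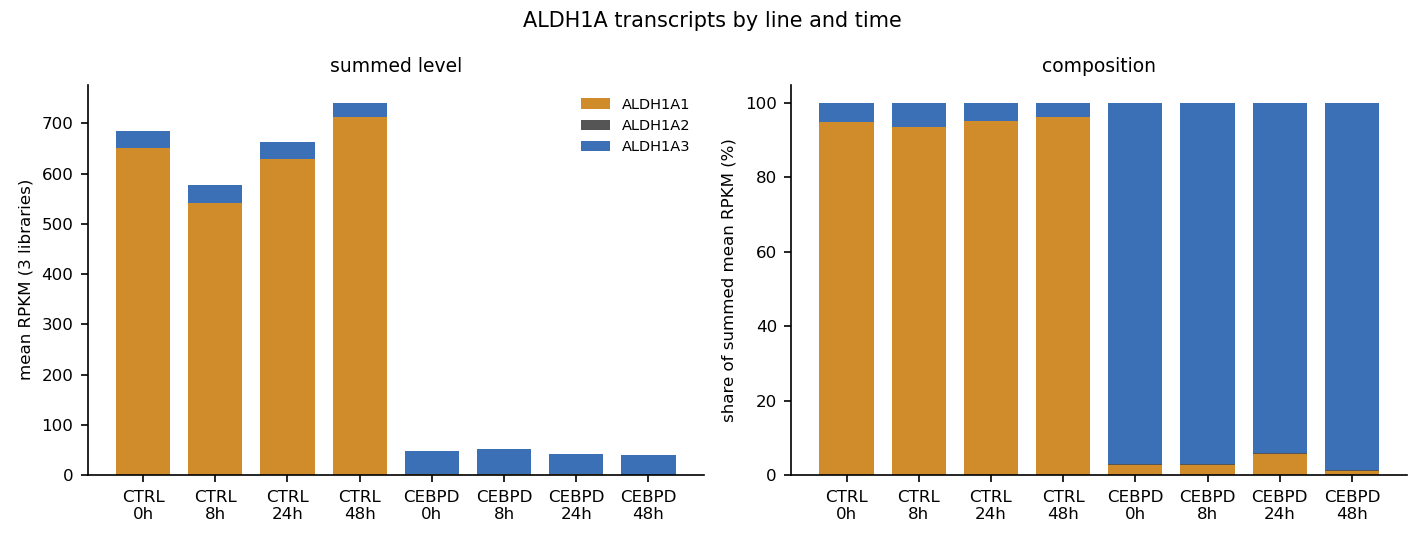
Mean RPKM of ALDH1A1, ALDH1A2 and ALDH1A3 in each line and time (3 libraries a group), stacked as levels on the left and as percentages of their sum on the right. ALDH1A1 fills 93.5% or more of every CTRL library, and ALDH1A3 fills 90.3% or more of every C/EBPδ-inducible library (CEBPD in the plot).

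The catabolic side of the pathway also differed between the lines, through CYP26B1. This enzyme hydroxylates all-trans retinoic acid, and its gene is on chromosome 2. It was counted at 125, 170 and 126 reads in C/EBPδ-inducible cells at 0 h, at 27, 29 and 24 at 8 h, at 52, 64 and 71 at 24 h, and at 61, 80 and 61 at 48 h. CTRL wells held 2 to 8 counts each, below every C/EBPδ-inducible well. In CPM the C/EBPδ-inducible wells were at 6.66, 7.74 and 7.07 at 0 h, at 1.42, 1.495 and 1.84 at 8 h, at 2.59, 3.04 and 3.16 at 24 h, and at 3.45, 3.52 and 3.55 at 48 h. CYP26B1 was thus highest before doxycycline, lowest at 8 h and intermediate later, and the ranges of these 4 groups did not overlap. Relative to CTRL cells it was 23.5-fold higher at 0 h (log2 fold change 4.55 ± 0.22 SE, edgeR adjusted p = 1.16e-12), 6.02-fold at 8 h, 9.91-fold at 24 h and 17.2-fold at 48 h (4.10 ± 0.27 SE, adjusted p = 2.98e-08). The log2 fold change at 8 h, 2.59 ± 0.40 SE, became 3.27 without replicate 2 of CTRL cells. Within C/EBPδ-inducible cells it fell by 2.19 ± 0.16 SE on the log2 scale at 8 h (edgeR adjusted p = 6.53e-10), by 1.29 ± 0.13 SE at 24 h and by 1.06 ± 0.12 SE at 48 h. CYP26B1 was not testable over time in CTRL cells at these counts. The difference between the lines in the change was -1.98 ± 0.55 SE at 8 h and did not pass the threshold (edgeR adjusted p = 0.046), but did so without replicate 3 of CTRL cells at 8 h (-2.31, adjusted p = 0.00837), and was -1.29 without replicate 2 of them (adjusted p = 0.332). At 24 h the difference was -1.24 ± 0.45 SE (edgeR adjusted p = 0.108), and at 48 h -0.47 ± 0.47 SE (adjusted p = 0.702). CYP26B1 passed the filter through the line in which it was higher.

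CYP26A1, the hydroxylase whose promoter carries the repeat of AGNTCA shown above, was not measurable. It had at most 5 counts in a CTRL library and at most 4 in a C/EBPδ-inducible library, 13 and 11 counts over 12 libraries each, and was tested in no comparison.

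The binding proteins were low, and FABP5 differed between the lines. FABP5 delivers fatty acids and retinoic acid to the nuclear receptor PPARD. It had 25, 26 and 33 counts in CTRL cells at 0 h, 18, 26 and 26 at 8 h, 29, 22 and 27 at 24 h, and 18, 9 and 12 at 48 h. In C/EBPδ-inducible cells all wells at 0 and 24 h were at 0, the wells at 8 h held 0, 2 and 3 counts, and those at 48 h held 1, 2 and 2. The groups did not overlap at any time. With a floor of 3 counts over the group, FABP5 was at least 30.5-fold lower in C/EBPδ-inducible cells at 0 h (edgeR adjusted p = 4.3e-08) and at least 26.8-fold lower at 24 h (adjusted p = 1.18e-08). The ratio of CTRL to C/EBPδ-inducible cells was 13.2 at 8 h (95% counting interval 5.38 to 41.8, edgeR adjusted p = 0.000337) and 8.00 at 48 h (3.15 to 26.0, not tested after the filter). The fitted log2 fold change at 8 h, -3.62 ± 0.57 SE, became -2.98 and -4.46 without replicates 1 and 3 of C/EBPδ-inducible cells. FABP5 fell by 1.17 ± 0.28 SE on the log2 scale in CTRL cells from 0 to 48 h (edgeR adjusted p = 0.00469). This call was lost when any of the 3 wells at 0 h, replicate 2 or replicate 3 at 48 h was left out (adjusted p = 0.0101 to 0.025). FABP5 passed the filter through CTRL cells, and its level is uncertain because many processed pseudogenes share its sequence.

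CRABP2, which hands retinoic acid to RARA, was detected in every library at 7 to 30 counts, and its difference between the lines passed the test at no time. It ranged from 0.370 to 1.03 CPM in CTRL cells and from 0.523 to 1.37 CPM in C/EBPδ-inducible cells. At 48 h, the time with the smallest p of the 4 comparisons, the CTRL wells held 0.745, 0.469 and 0.421 CPM and the C/EBPδ-inducible wells 1.30, 0.835 and 0.988 CPM, which do not overlap, nor did those at 0 h. The log2 fold change there was 0.88 ± 0.33 SE (edgeR adjusted p = 0.0409).

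**Figure D2:**
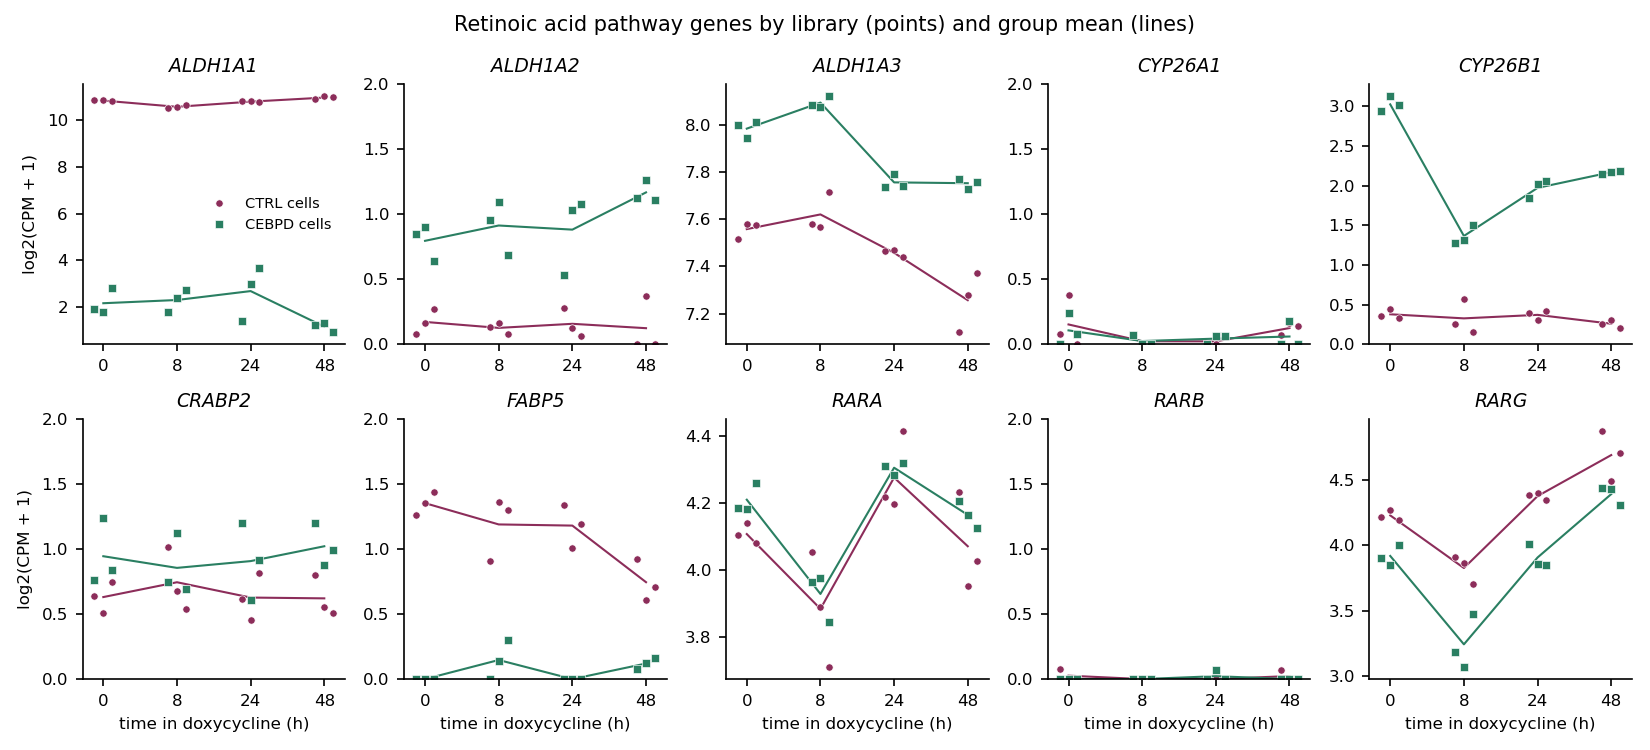
log2(CPM + 1) of the 10 genes in each of 24 libraries (points, 3 per line and time) with group means (lines), against hours of doxycycline. ALDH1A1 and FABP5 are high in CTRL cells, ALDH1A2, ALDH1A3 and CYP26B1 are high in C/EBPδ-inducible cells (CEBPD in the plot), and CYP26A1 and RARB lie at or near 0, with axes that differ between panels.

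Of the receptors, RARA and RARG were expressed at like levels and RARB was not detectable at this depth. RARB had 1 count in each of 3 libraries and none in the others, so that no fold is given. Per kilobase, RARA averaged 3.39 RPKM over CTRL libraries and 3.56 RPKM over C/EBPδ-inducible libraries, and RARG 3.69 and 2.76 RPKM. RARA wells held 16.2, 16.6 and 15.9 CPM in CTRL cells and 17.2, 17.2 and 18.2 CPM in C/EBPδ-inducible cells at 0 h. At 24 h they held 17.6, 17.3 and 20.3 CPM in CTRL cells and 18.9, 18.5 and 19.0 CPM in C/EBPδ-inducible cells, with overlapping ranges. The edgeR adjusted p between the lines was 0.221 at 0 h, 0.704 at 8 h, 0.725 at 24 h and 0.505 at 48 h, and the log2 fold change at 24 h was 0.03 ± 0.07 SE. Between the ranked group means of RARA, each group overlapped with the next. In C/EBPδ-inducible cells RARA fell by 0.28 ± 0.08 SE on the log2 scale at 8 h (edgeR adjusted p = 0.00513). This call was lost without any 1 of the wells at 0 h or of replicates 1 and 3 at 8 h, with adjusted p between 0.0112 and 0.024.

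RARG was lower in C/EBPδ-inducible cells at 0, 8 and 24 h, and in both lines its lowest group was at 8 h and its highest at 48 h. CTRL wells held 17.6, 18.3 and 17.3 CPM at 0 h, 14, 13.6 and 12.03 CPM at 8 h, 19.8, 20.1 and 19.4 CPM at 24 h, and 28.3, 21.5 and 25.0 CPM at 48 h. C/EBPδ-inducible wells held 13.95, 13.4 and 14.98 CPM at 0 h, 8.07, 7.37 and 10.1 CPM at 8 h, 15.1, 13.5 and 13.4 CPM at 24 h, and 20.6, 20.5 and 18.8 CPM at 48 h. At each time the C/EBPδ-inducible wells lay below the CTRL wells. The log2 fold change was -0.34 ± 0.07 SE at 0 h (edgeR adjusted p = 0.000737), -0.64 ± 0.13 SE at 8 h (adjusted p = 0.00169) and -0.49 ± 0.07 SE at 24 h (adjusted p = 2.49e-06). At 48 h it was -0.33 ± 0.10 SE and missed the threshold (edgeR adjusted p = 0.0105), which it passed without replicate 2 of CTRL cells at 48 h (-0.43, adjusted p = 0.000811). The call at 8 h was lost without replicate 1 or replicate 2 of C/EBPδ-inducible cells (edgeR adjusted p = 0.0125 and 0.0151).

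Over time RARG fell by 0.74 ± 0.10 SE on the log2 scale at 8 h in C/EBPδ-inducible cells (edgeR adjusted p = 7.26e-06), while the value in CTRL cells was -0.40 ± 0.09 SE (adjusted p = 0.0296, and 0.00589 without replicate 1 at 8 h). By 48 h it had risen above 0 h by 0.49 ± 0.07 SE in C/EBPδ-inducible cells (edgeR adjusted p = 5.77e-06) and by 0.50 ± 0.10 SE in CTRL cells (adjusted p = 0.00154, and 0.0118 without replicate 3 of 0 h). The difference between these changes was -0.02 ± 0.13 SE (edgeR adjusted p = 0.953). RARG made up 50.2% ± 0.20 (SD, n = 3) of the RARA and RARG level per kilobase in CTRL cells at 0 h, 47.0% ± 1.42 at 8 h and 59.2% ± 1.19 at 48 h. In C/EBPδ-inducible cells its share was 42.7% ± 0.65 at 0 h, 35.6% ± 5.04 at 8 h and 52.2% ± 0.72 at 48 h.

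**Figure D3:**
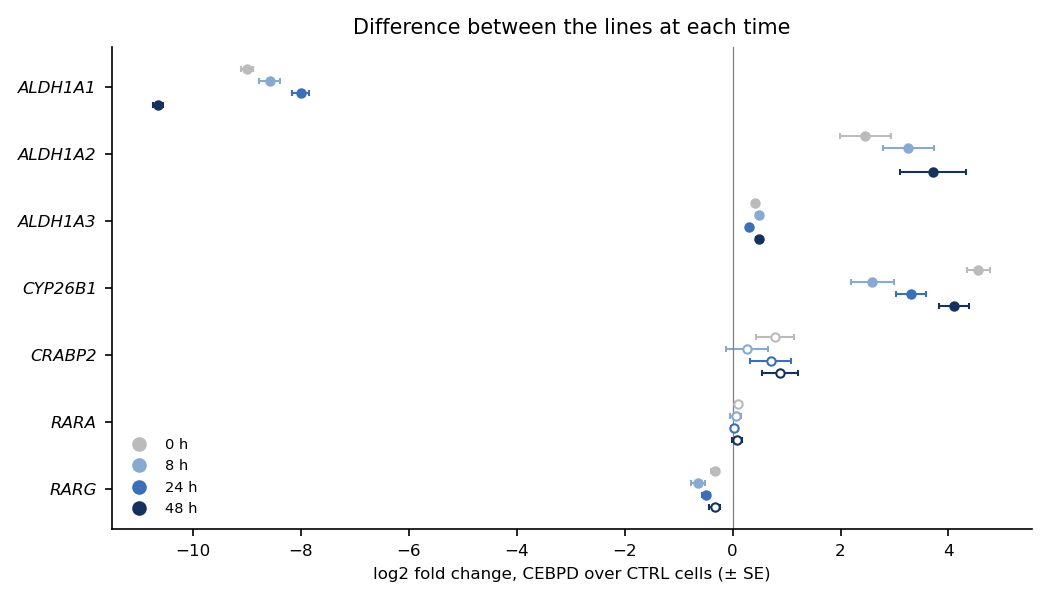
log2 fold change of C/EBPδ-inducible over CTRL cells with its SE from edgeR, for 7 of the tested genes, at 0, 8, 24 and 48 h. FABP5, tested at 0, 8 and 24 h, is not plotted, and ALDH1A2 was not tested at 24 h. Filled points passed an adjusted p under 0.01, open points did not, and ALDH1A1 sits between -8.01 and -10.65 at all 4 times.

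Counted over all 10 genes, 8 could be tested between the lines at 0 h, of which the C/EBPδ-inducible line had 3 at a higher and 3 at a lower level. Of all genes tested there, 43.9% were called, 20.0% higher and 23.9% lower. The counts were 3 higher and 3 lower of 8 at 8 h (31.8% of all genes, 14.3% higher and 17.4% lower), 2 and 3 of 7 at 24 h (46.9%, 21.5% and 25.3%), and 3 and 1 of 7 at 48 h (38.3%, 17.6% and 20.7%). ALDH1A2, CYP26B1 and FABP5 could be tested only because 1 of the lines was high, so these counts say nothing about the pathway beyond its genes. In C/EBPδ-inducible cells over time, 4 genes were called at 8 h (30.5% of all genes), 2 at 24 h (15.5%) and 4 at 48 h (38.7%). In CTRL cells 1 was called at 8 h (1.70% of all genes), none at 24 h (6.06%) and 4 at 48 h (30.0%). The call at 8 h was a fall of ALDH1A1 by 0.24 ± 0.04 SE on the log2 scale (edgeR adjusted p = 0.00486), lost without any 1 of the wells at 0 h or replicate 2 at 8 h (adjusted p = 0.0282 to 0.0475). Without replicate 1 at 8 h both ALDH1A1 and RARG were called. The rise of ALDH1A1 in CTRL cells at 48 h, 0.13 ± 0.03 SE (edgeR adjusted p = 0.00818), was lost in 5 of the 6 fits that left out a well, the exception being that without replicate 1 at 48 h. At 24 h in CTRL cells 1 gene was called without replicate 1 of 0 h. The difference between the lines in the change over time was called for no gene at 8 h (1.66% of all genes) or 24 h (5.84%) and for ALDH1A1 alone at 48 h (5.54%). At an unadjusted p under 0.05 the edgeR test gave 4 genes in CTRL cells at 24 h and 3 for the differences at 8 h and at 24 h. The 3 at 8 h include FABP5, which had 0 counts in C/EBPδ-inducible cells at 0 h. The share of all genes under that cut-off was not taken, so nothing is read from these counts. At the other threshold, an adjusted p under 0.01, DESeq2 called 0 in each. Comparisons with 0 h share their control wells.

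**Figure D4:**
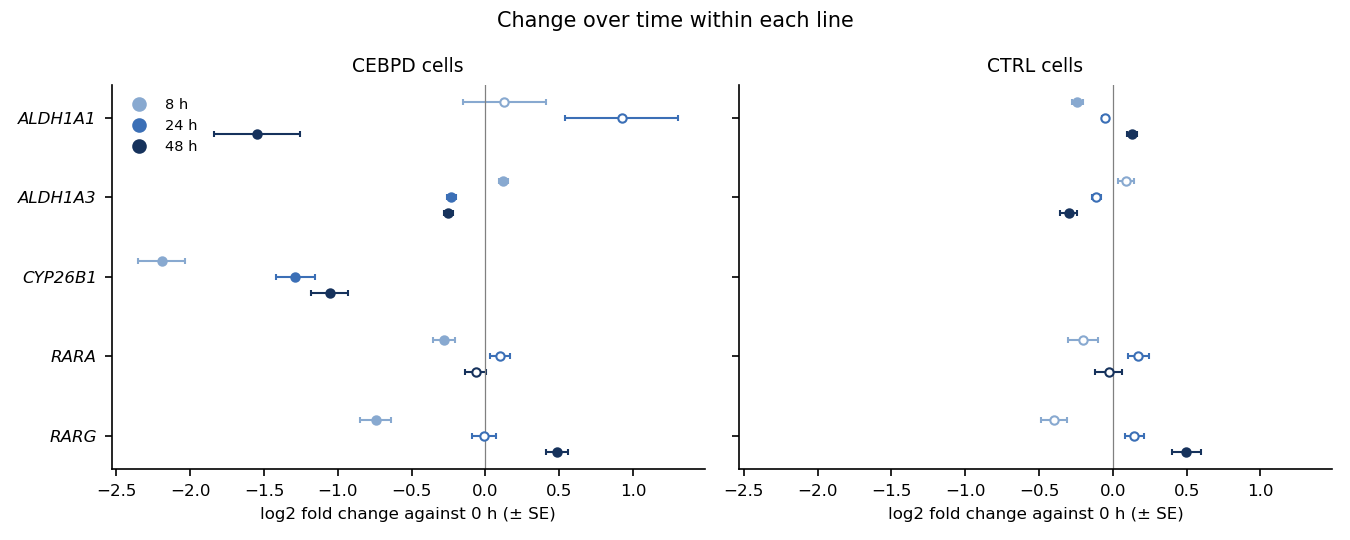
log2 fold change against 0 h with its SE from edgeR in C/EBPδ-inducible cells (left) and CTRL cells (right) at 8, 24 and 48 h. Filled points passed an adjusted p under 0.01. CYP26B1 sits between -2.19 and -1.06 in C/EBPδ-inducible cells and was not testable in CTRL cells, while RARG sits at 0.49 and 0.50 at 48 h.

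Several lists of other genes of the pathway give the setting of these 10. Of 73 such genes 38 could be tested between the lines at 24 h, with 13 at a higher and 16 at a lower level in C/EBPδ-inducible cells and a median log2 fold change of -0.13, against 46.9% of all genes called and a median of 0.01 over them. Among 7 genes of retinol uptake and storage 3 were tested. STRA6, the membrane receptor for the retinol carrier, was lower (9.77 against 19.6 CPM, log2 fold change -1.003 ± 0.09 SE, edgeR adjusted p = 9.78e-10), and the plasma carrier RBP4 was higher (1.64 against 0.421 CPM, 1.95 ± 0.31 SE, adjusted p = 7.02e-06). RBP4, like BCO2 and ALDH3A1 below, passed the filter through C/EBPδ-inducible cells.

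Of 18 retinol and retinal oxidoreductases 8 were tested at 24 h, with 3 higher and 3 lower, against 21.5% and 25.3% of all genes. DHRS3, which reduces retinaldehyde back to retinol, was lower (4.71 against 17.5 CPM, log2 fold change -1.89 ± 0.11 SE, edgeR adjusted p = 2.16e-13). RDH10, the principal dehydrogenase that oxidises retinol, was lower by a smaller amount (11.4 against 16.6 CPM, -0.54 ± 0.08 SE, edgeR adjusted p = 4.46e-06), as was RDH14 (10.1 against 14.9 CPM). RDH11 was higher by 0.14 ± 0.04 SE, ADH5 by 0.31 ± 0.04 SE and the carotenoid-cleaving BCO2 by 1.66 ± 0.28 SE, the last at 1.91 against 0.599 CPM. The RDH11 call was lost in 8 of 13 alternatives, including each fit without a CTRL well (edgeR adjusted p = 0.0119, 0.0218 and 0.0416) and that without replicate 2 of C/EBPδ-inducible cells (0.09, adjusted p = 0.0583). CYP1B1, the tested member of 3 other cytochrome P450 genes of retinoids, was lower (1.55 against 2.83 CPM, edgeR adjusted p = 0.00624). This call was lost in 7 of 13 alternatives, among them those without replicate 2 or 3 of CTRL cells or replicate 1 or 2 of C/EBPδ-inducible cells (adjusted p = 0.0211, 0.115, 0.0243 and 0.0313), and the log2 fold change went from -0.87 to -0.54 without replicate 3 of CTRL cells. None of 10 further binding proteins of the CRABP and FABP families passed the filter.

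Partner receptors and cofactors were nearly all expressed, with 9 of 10 tested at 24 h, 3 higher and 4 lower (21.5% and 25.3% of all genes). The largest difference was that of NRIP1, a ligand-dependent corepressor of nuclear receptors that is itself induced by retinoic acid in some cells. NRIP1 wells held 3.31, 3.42 and 3.18 CPM in CTRL cells and 100.3, 92.9 and 92.9 CPM in C/EBPδ-inducible cells at 0 h. At 24 h they held 4.19, 2.86 and 3.13 CPM in CTRL cells and 59.2, 63.0 and 64.0 CPM in C/EBPδ-inducible cells. The log2 fold change was 4.85 ± 0.07 SE at 0 h (edgeR adjusted p = 8.5e-21) and 4.21 ± 0.08 SE at 24 h (adjusted p = 1.36e-23), and in C/EBPδ-inducible cells NRIP1 fell by 0.62 ± 0.04 SE over these 24 h. RXRA, a partner of the RARs, was lower (62.1 against 77.7 CPM, -0.32 ± 0.05 SE, edgeR adjusted p = 1.11e-06) and RXRB higher (45.3 against 32.1 CPM, 0.50 ± 0.05 SE, adjusted p = 7.95e-09). The coactivators NCOA1, NCOA2 and NCOA3 were lower by 0.79, 0.32 and 0.26 on the log2 scale.

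Among 11 genes known to respond to retinoic acid 6 were tested, of which 5 were lower and 1 higher at 24 h. Of all genes tested then, 25.3% were lower and 21.5% higher. Besides STRA6 and DHRS3, which are in this list too, the homeobox gene MEIS2 was lower, at 62.1 against 115 CPM (log2 fold change -0.88 ± 0.04 SE, edgeR adjusted p = 2.04e-16). Transglutaminase TGM2 was lower by a small amount (765 against 875 CPM, -0.19 ± 0.03 SE, edgeR adjusted p = 5.05e-06), and the circadian repressor BHLHE40 was higher (33.2 against 9.62 CPM, 1.80 ± 0.08 SE, adjusted p = 5.86e-16). The same 5 genes were lower at 0 h, before doxycycline, when CEBPD was already higher in C/EBPδ-inducible cells. RARRES1, another such gene, had 180 and 193 counts in replicate 3 of CTRL cells at 0 and 24 h and at most 13 counts in any other library. Replicate 1 of those groups held 9 and 13 counts of it and replicate 2 held 1 and 0. FABP1 had reads only in replicate 1 of the same groups, at 8 and 10 counts. DHRS9 had reads there only in replicate 2, at 12 and 16 counts. Elsewhere in CTRL cells DHRS9 had 39 and 13 counts, in replicate 3 at 8 and 48 h. Over the genes past the filter, deviations of same-numbered CTRL libraries at 0 and 24 h correlated at 0.122, 0.139 and 0.151. Same-numbered wells of these groups may therefore not be independent. Why these libraries stand apart was not tested.

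Over time these responsive genes did not move as one. STRA6 rose in C/EBPδ-inducible cells by 1.51 ± 0.09 SE on the log2 scale from 0 to 48 h (edgeR adjusted p = 8.54e-13) and in CTRL cells by 0.60 ± 0.09 SE (adjusted p = 0.000152). The rises differed by 0.90 ± 0.13 SE (edgeR adjusted p = 0.000127). DHRS3 rose by 1.18 ± 0.15 and 1.21 ± 0.08 SE, a difference of -0.04 ± 0.17 SE (edgeR adjusted p = 0.93). TGM2 rose in C/EBPδ-inducible cells, from 617, 632 and 626 CPM at 0 h to 884, 842 and 841 CPM at 48 h, and fell in CTRL cells, from 1093, 1124 and 1100 CPM to 699, 624 and 671 CPM. The line with the higher TGM2 level thus changed between 24 and 48 h, with a log2 fold change of 0.35 ± 0.05 SE at 48 h (edgeR adjusted p = 2.27e-05). BHLHE40 rose by 1.86 ± 0.06 SE in C/EBPδ-inducible cells and by 1.02 ± 0.10 SE in CTRL cells by 48 h.

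**Figure D5:**
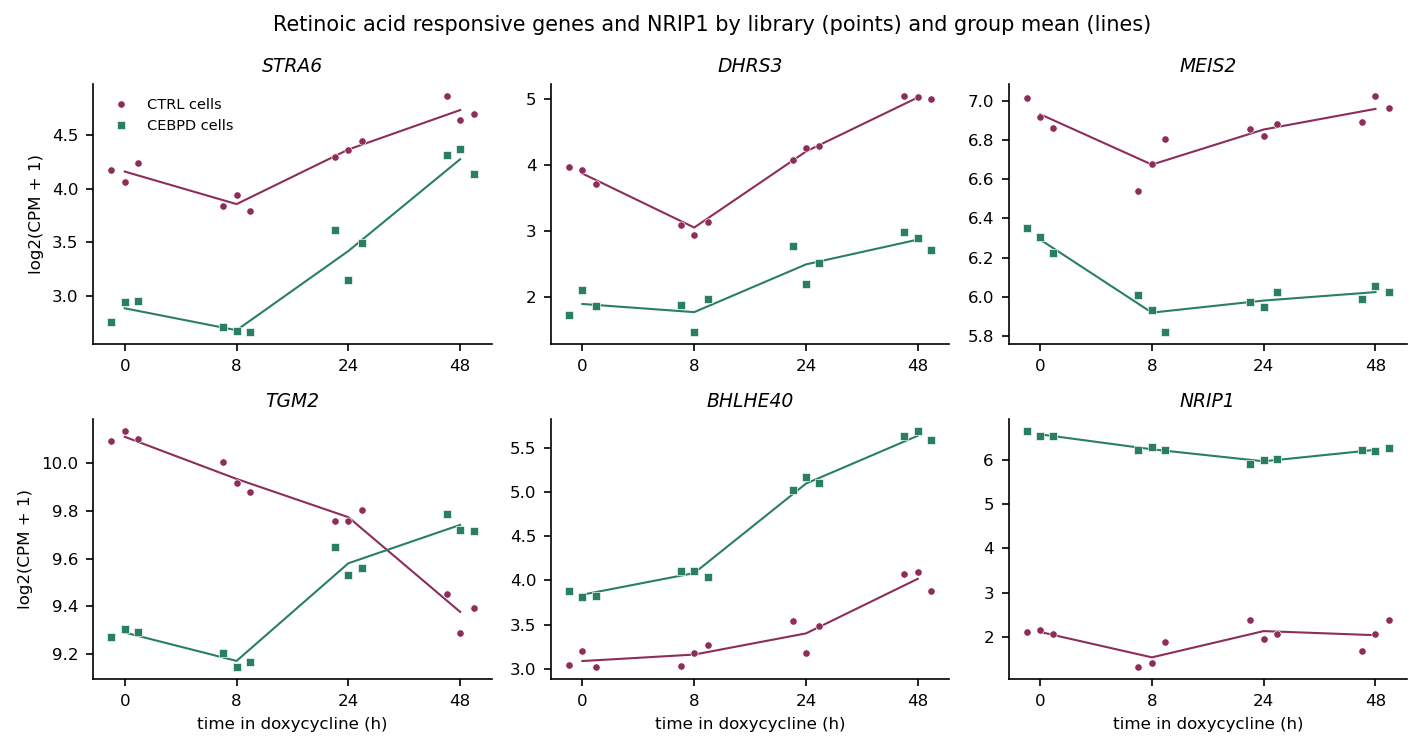
log2(CPM + 1) of STRA6, DHRS3, MEIS2, TGM2, BHLHE40 and NRIP1 in each library (points, 3 per line and time) with group means (lines), against hours of doxycycline. C/EBPδ-inducible cells (CEBPD in the plot) are below CTRL cells for the first 3 genes at every time, above them for BHLHE40 and NRIP1, and cross them for TGM2 between 24 and 48 h.

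Of 16 other aldehyde dehydrogenases 13 were tested at 24 h, with 5 higher and 4 lower, against 21.5% and 25.3% of all genes. ALDH7A1 and ALDH6A1, mitochondrial enzymes of amino acid breakdown in the main, were lower, at 146 against 295 CPM (log2 fold change -1.01 ± 0.03 SE, edgeR adjusted p = 2.62e-19) and 18.0 against 38.3 CPM (-1.09 ± 0.06 SE, adjusted p = 4.36e-14), as were ALDH4A1 and ALDH9A1 by 0.33 and 0.14 on the log2 scale, the last of these not without replicate 1 or 2 of CTRL cells (edgeR adjusted p = 0.0151 and 0.0102). ALDH1B1, ALDH3A2 and ALDH18A1 were higher by 0.31, 0.36 and 0.26 and the folate enzyme ALDH1L2 by 1.53 (5.67 against 1.959 CPM). ALDH3A1 was higher by 3.70 ± 0.24 SE (4.48 against 0.339 CPM, edgeR adjusted p = 8.36e-13), and 1 CTRL well, replicate 2 at 48 h, held 155 counts of it where the other CTRL wells held 5 to 32. The fold between lines of ALDH1A1, 257 at this time, was larger than that of any of these 13.

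Genes around the ALDH1A1 locus were lower as well, by far less. Within 1 Mb of its annotated start 4 protein-coding genes begin, of which ANXA1 and ZFAND5 were tested. ANXA1 averaged 1066 CPM over CTRL libraries and 681 CPM over C/EBPδ-inducible libraries, with a log2 fold change of -1.13 ± 0.02 SE at 0 h and -0.41 ± 0.03 SE at 24 h (edgeR adjusted p = 6.64e-13). ZFAND5 differed by -0.51 ± 0.05 SE at 0 h and -0.64 ± 0.05 SE at 24 h (edgeR adjusted p = 1.28e-11). Around ALDH1A3 10 of 13 neighbours were tested at 24 h, with 4 higher and 1 lower, and around CYP26B1 5 of 7, with none higher and 2 lower, between -0.64 and 0.10. Of 12 neighbours of FABP5 5 were tested at 24 h, 3 of them lower. In these comparisons 21.5% of all genes were called higher and 25.3% lower.

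The genes most like each of the abundant members were found by Pearson's r of log2(CPM + 1) over the 24 libraries, among 13713 genes with a mean of at least 1 CPM. For ALDH1A1 these were ANK3 (r = 0.99), MMP1 and ZNF558, and for these genes the libraries fall into the lines, so that r mostly measures the gap between them. ALDH1A3 was most like UAP1 (r = 0.98), SAMD4A and CD55. CYP26B1 was most like BCAR3 (r = 0.97), SATB1 and IFFO2. RARG was most like BTG2 (r = 0.95), SREBF1 and BCAM, and RARA most like STK32C (r = 0.90), VARS1 and ECSIT. Libraries of 1 group share line and time, and no p is given.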

How the data were processed

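RNA of 24 libraries was sequenced by the authors as 50-base reads after depletion of ribosomal RNA. The deposited values are whole-number counts per gene, without normalization, filter or pooling. According to the labels and the methods of the study, reads were trimmed with Trimmomatic (version 0.36 in the labels), aligned to GRCh38 with Hisat2 and counted with HTSeq. The versions named in the labels and in the methods differ, and the strand setting and the handling of multimapped reads are not given in the sources used here. Every column of the table was assigned to a library by its name. Gene names, spans and exon lengths were taken from GENCODE 44 (GRCh38), which matched 56558 of the 60675 identifiers, whereas the authors used Ensembl 84.

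After filterByExpr and TMM normalisation, models of the groups compared were fitted in edgeR 4.0.16 (R 4.3.3), with its quasi-likelihood F test. Adjustment over all genes tested followed Benjamini and Hochberg, at a threshold of 0.01 as in the study. Fold changes carry the prior count of edgeR, and SEs were derived from its F statistic. Between-line comparisons were made at 0, 8, 24 and 48 h, changes against 0 h within each line, and their differences by an interaction contrast. Exact intervals on summed counts (95%) and the floor of 3 counts over a group cover counting error only. The fitting was also run on simulated counts, with the same dispersion for every gene and few changed genes. That setting differs from these data, so nothing about the values here is read from it. The 10 genes and the lists were chosen with earlier results of these data known. All 10 genes are named, other pathway genes only if called at 24 h, neighbours by a window of 1 Mb, and the 3 genes most like each member with a mean of at least 1 CPM. RARRES1, FABP1, DHRS9, ANK3, MAP2, MMP1, HOXB8, HOXB9, ANXA1 and ZFAND5 fall outside that rule and were named after their values were seen. The changes of STRA6, DHRS3, TGM2 and BHLHE40 at 48 h were also named after they were seen.

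Replicate numbers come from the labels and are not stated to mark shared wells or days. Same-numbered libraries deviated together only between CTRL cells at 0 and 24 h, with correlations of 0.122, 0.139 and 0.151 for the 3 numbers, and none of the 10 genes was called there with or without the replicate block. No pair of replicates agreed within sampling noise. Alternatives were leaving out each library, the replicate block, DESeq2 1.42.0, its size factors in edgeR, no filter, at least 10 counts required per library, 1 model for the 24 libraries together, and analysis of variance of log2(CPM + 1). Those for other pathway genes, and the variant repeat, were added after the data were seen. Values of some genes of the lists are not reported here, although they are in the counts.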

Additional observations from a re-analysis of the deposited data

Results flagged for a closer look

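A change that differed between the lines, by the interaction contrast of edgeR's quasi-likelihood test, was found for ALDH1A1 among the 10 genes and for 5 other pathway genes at 24 h. ALDH1A1 changed between 0 and 48 h by -1.55 on the log2 scale in C/EBPδ-inducible cells and by 0.13 in CTRL cells, a difference of -1.67 ± 0.30 SE (edgeR adjusted p = 0.00114), on counts of 15 to 107 in the first line. The value kept its direction in each fit that left out a library, between -1.93 and -1.17, and was not called with all 24 libraries in 1 model (adjusted p = 0.0637) or by the analysis of variance (adjusted p = 0.0881).

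At 24 h the changes of BHLHE40 differed by 0.98 ± 0.13 SE (edgeR adjusted p = 9.38e-06), from 1.32 in C/EBPδ-inducible cells and 0.34 in CTRL cells. Those of TGM2 differed by 0.64 ± 0.04 SE (adjusted p = 1.09e-11), since it rose by 0.29 in the first line and fell by 0.35 in the second. The difference was 0.28 ± 0.05 SE for ADH5 (edgeR adjusted p = 0.000809), -0.33 ± 0.05 SE for ALDH3A2 (adjusted p = 2.29e-05) and -0.63 ± 0.15 SE for NRIP1 (adjusted p = 0.00773). The NRIP1 call was lost in 10 of 12 fits without a library, with adjusted p of up to 0.0813, and with the replicate block (adjusted p = 0.012), and those of NRIP1 and ADH5 were lost with all 24 libraries in 1 model (adjusted p = 0.0532 and 0.0112).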

How the results depend on the processing

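Between the lines, the count of members called was unchanged or within 1.5 times in most alternatives. A minimum of 10 counts in every library, which removes ALDH1A2, CYP26B1 and FABP5, left 3 called at 0, 8 and 24 h. The analysis of variance on log2(CPM + 1) left 2 between the lines at 8 h, 1 at each time in C/EBPδ-inducible cells and 0 at 8 and 48 h in CTRL cells, and gave 1, 1 and 2 for the differences between the lines at 8, 24 and 48 h. The model of all 24 libraries left 2 in C/EBPδ-inducible cells at 8 h and 0 for the difference at 48 h. No low-count filter gave 2 in CTRL cells at 8 h and 1 for the difference at 24 h, and DESeq2 left 2 in CTRL cells at 48 h. The replicate block left 0 in CTRL cells at 8 h and 2 at 48 h and changed no other count of members by over 1.5 times, and same-numbered libraries showed no pairing there. Leaving out 1 library gave 2 to 4 members called in C/EBPδ-inducible cells at 8 h, 0 to 2, 0 to 1 and 1 to 4 in CTRL cells at 8, 24 and 48 h, and 0 to 1 for the differences at 8 and 24 h. The change of ALDH1A1 in C/EBPδ-inducible cells at 8 h, 0.13, turned to -0.04 and -0.12 without replicates 1 and 2 of 0 h and to -0.13 without replicate 3 of 8 h, ranged up to 0.64 without replicate 3 of 0 h, and was called in none of these fits. The cause of these changes was not tested beyond the removal of genes and libraries.

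Over all genes, the analysis of variance called 3856, 2317, 4317 and 3167 between the lines at 0, 8, 24 and 48 h, where edgeR called 6726, 4946, 7360 and 5965, and 1260, 498 and 2238 in C/EBPδ-inducible cells at 8, 24 and 48 h, where edgeR called 4701, 2407 and 5952. In CTRL cells at 8 h edgeR called 259 genes, 53.3% of them higher, while DESeq2 called 430, no filter 843 (42.4% higher), the model of all 24 libraries 1229 (39.2%), the block 87 (70.1%) and the fit without replicate 1 of 8 h 774. For the difference at 8 h it called 269, and 1196 without replicate 3 of CTRL cells at 8 h. In CTRL cells at 24 h it called 921 and the analysis of variance 39. Counts under about 10 per library limit ALDH1A2, CYP26A1, RARB, FABP5 and CYP26B1 in CTRL cells. The number of pathway genes called between the lines at 24 h, 29 in the main fit, ranged from 22 to 31 under the alternatives.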
